A study of Homo sapiens with 10 samples.

Results

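The genes described here are the host genes of small nucleolar RNAs (snoRNAs) and microRNAs, long non-coding transcripts whose introns or exons carry a small RNA. They were taken from the count table by symbol: SNHG followed by a number, MIR followed by a microRNA name and HG, and the 3 older names GAS5, ZFAS1 and DANCR. This gave 62 of the 23089 genes of the table, 24 hosts of snoRNAs and 38 hosts of microRNAs. RNA was prepared from U2OS cells, an established osteosarcoma line, 3 days after siRNA transfection, and 2 libraries were sequenced for each of 5 groups: siCtrl 3 and siCtrl 4, which are unrelated control siRNAs, siH2A.Z.1 and siH2A.Z.2, each against one isoform of the histone variant H2A.Z, and the siRNAs against both isoforms together (called combined depletion below). No group was left untransfected. The comparisons ask which genes depend on each isoform and whether the isoforms act alike. The study's methods state that the samples were transfected in parallel, so p-values measure the spread between parallel transfections. Where libraries of both control siRNAs are pooled as the control, that spread also holds the difference between the control siRNAs.

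Host genes work through what they carry and, in some cases, through the spliced RNA itself. SnoRNAs guide 2′-O-methylation (box C/D) or pseudouridylation (box H/ACA) of ribosomal and spliceosomal RNA, and most human snoRNAs are trimmed from the intron lariat of a spliced host. Many non-coding snoRNA hosts are rapidly degraded by nonsense-mediated decay once translated, so the exonic RNA and the snoRNA of the same gene can have very different stabilities. MicroRNA hosts are cut by DROSHA in the nucleus, and the hairpin is matured by DICER1 into the short RNA that pairs with target transcripts through its seed. The isoforms of H2A.Z come from separate genes, named H2AFZ and H2AFV in the table, and sit in nucleosomes near active transcription starts. U2OS is a bone tumour line, and several hosts below, such as GAS5 and MIR31HG, have been studied in cancer cells for growth and senescence.

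The libraries were made from total RNA without ribosomal RNA and hold reads of host transcripts, not of mature microRNAs. The mature microRNAs encoded in the hosts on which the results turn are shown here to say what each host carries, with RefSeq sequences (GRCh38.p14) and the seed, bases 2 to 8, in capitals. MIR31HG, MIR210HG, MIR34AHG and MIR4307HG each carry a single microRNA gene.
hsa-miR-31-5p: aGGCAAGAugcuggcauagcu
hsa-miR-210-3p: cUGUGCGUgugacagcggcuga
hsa-miR-34a-5p: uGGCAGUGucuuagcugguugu
hsa-miR-4307: aAUGUUUUuuccuguuucc
MIR100HG and MIR99AHG carry clusters on chromosomes 11 and 21 whose members share seeds pair by pair: miR-100 with miR-99a, let-7a with let-7c, and miR-125b in both.
hsa-miR-100-5p: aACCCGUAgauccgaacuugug
hsa-miR-99a-5p: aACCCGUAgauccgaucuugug
hsa-let-7a-5p: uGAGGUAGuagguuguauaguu
hsa-let-7c-5p: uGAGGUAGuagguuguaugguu
hsa-miR-125b-5p: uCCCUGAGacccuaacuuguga
In the MIR17HG cluster, miR-17 and miR-20a share a seed, and so do miR-19a and miR-19b.
hsa-miR-17-5p: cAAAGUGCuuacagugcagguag
hsa-miR-20a-5p: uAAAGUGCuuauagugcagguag
hsa-miR-19a-3p: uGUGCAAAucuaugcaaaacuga
hsa-miR-19b-3p: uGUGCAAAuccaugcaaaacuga

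Total counts per library ranged from 16716990 to 26946836, and the 62 hosts took between 0.0918% and 0.133% of them. H2AFZ fell to 7.86% of the mean of the 4 control libraries upon H2A.Z.1 depletion and to 9.05% upon combined depletion, and stood at 102% upon H2A.Z.2 depletion. H2AFV stood at 98.6%, 39.0% and 33.2% in the same order, so the labels hold. Levels are given as CPM, counts scaled to a common library size after TMM normalisation. H2AFV itself differed between the control siRNAs, at 248 and 239 CPM in siCtrl 3 and 143 and 147 in siCtrl 4. The siH2A.Z.1 libraries lay between these for H2AFV, at 200 and 183 CPM. Of the markers of the mesenchymal and osteoblast lineage, VIM ranged from 1502 to 3550 CPM, SPARC from 1556 to 2129, COL1A1 from 373 to 1405, RUNX2 from 10.8 to 22.8 and ALPL from 0.402 to 8.12. Markers of other cell types were low in every library: EPCAM reached 2.89, CDH1 3.99, PTPRC 1.21, PECAM1 0.969 and ALB 0.534 CPM. Of the 5 lineage markers 0 rose and 3 fell upon H2A.Z.1 depletion (median log2 fold change −0.72), and of the 5 markers of other cell types 1 rose and 2 fell (median −0.25). Their part in the results below was not tested. In these bulk libraries fewer cells of a kind and less RNA per cell cannot be told apart. All 24 snoRNA hosts and 24 of the 38 microRNA hosts had at least 20 counts summed over the 10 libraries. Genes were called at an adjusted p under 0.05 in edgeR's quasi-likelihood test (Benjamini-Hochberg over all genes tested) with a log2 fold change beyond 0.32 in either direction.

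Upon H2A.Z.1 depletion, the change that stood out among the hosts was the loss of SNHG16, which carries the box C/D snoRNAs SNORD1A, SNORD1B and SNORD1C. SNHG16 (RefSeq lncRNA, chr17:76557764-76565348, plus strand) was at 274 and 284 CPM in the siCtrl 3 libraries, 261 and 282 in siCtrl 4, 51.1 and 58.3 in siH2A.Z.1, 204 and 223 in siH2A.Z.2, and 47.5 and 48.7 in combined depletion. Every library that received the H2A.Z.1 siRNA lay below every library that did not. The level was 19.9% ± 1.84 of the control mean upon H2A.Z.1 depletion and 17.5% upon combined depletion (SD, n = 2), and 77.5% ± 4.92 upon H2A.Z.2 depletion. The log2 fold change was −2.34 (SE 0.11, edgeR adjusted p = 0.000172) for H2A.Z.1 and −2.50 (SE 0.09, edgeR adjusted p = 0.000373) for combined depletion, and both calls held under all 15 alternative analyses tried for each. In the control libraries SNHG16 took 20.9% to 28.4% of all counts of the 62 hosts, and in the libraries with the H2A.Z.1 siRNA 5.08% to 5.74%. The control siRNAs did not differ detectably from each other at SNHG16 (log2 fold change −0.04, SE 0.08, edgeR adjusted p = 0.697 for siCtrl 4 over siCtrl 3).

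A single siRNA sequence against H2A.Z.1 is listed in the study's methods, so the calls upon H2A.Z.1 and combined depletion do not rest on independent siRNAs. It is printed as its sense strand, with the 7 bases in capitals that a target must hold to pair with the seed of the guide strand.
siH2A.Z.1: guaguggguuuUGAUUGAg
All 19 bases were found in 6 of the 7 GENCODE transcripts of H2AZ1, the current symbol of H2AFZ. In the 18 GENCODE transcripts of SNHG16 the best ungapped match covered 13 of the 19 bases, and 0 transcripts held the capital letters. They were found in 78 of 91 transcripts of GAS5, 0 of 27 of MIR31HG, 0 of 9 of MIR210HG and 1 of 107 of MIR100HG. This is a search of letters only, and pairing in cells was not tested.

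Several snoRNA hosts belong to the genes whose RNA starts with a C followed by a run of pyrimidines, the signature of transcripts of the translation machinery. A C followed by at least 4 further C or T at the annotated RefSeq start was found in 6 of 19 snoRNA hosts with a promoter entry (31.6%), in 2 of 19 microRNA hosts (10.5%), and in 4.04% of all 27305 promoters searched on the transcribed strand. The runs are in capitals below, in the 10 bases before and the 20 bases after the start (GRCh38.p14), and SNHG16 is shown as a host without one.
SNHG16 (chr17:76557754-76557783, plus): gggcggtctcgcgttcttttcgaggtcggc
ZFAS1 (chr20:49278632-49278661, plus): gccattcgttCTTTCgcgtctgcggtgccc
SNHG5 (chr6:85678714-85678743, minus): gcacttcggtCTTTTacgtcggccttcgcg
SNHG12 (chr1:28581854-28581883, minus): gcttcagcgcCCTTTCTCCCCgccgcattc
SNHG4 (chr5:139274091-139274120, plus): ctcccggctgCCCTTTCCCCTCCggcctct
SNHG19 (chr16:2155339-2155368, minus): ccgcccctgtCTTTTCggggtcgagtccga
SNHG18 also held a run. The other 13 of the 19 snoRNA hosts had none, among them GAS5, which was called upon H2A.Z.1 depletion, and DANCR, SNHG1 and SNHG3, which were not. Annotated starts can be off by several bases, and a missing run says only that these letters are not at that base.

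In all, 8 of the 43 tested hosts were called upon H2A.Z.1 depletion against the 4 control libraries (18.6%), where 28% of all tested genes were called. Of the hosts, 3 rose (background 12.2%) and 5 fell (background 15.7%), so hosts were called no more often than other genes. Among snoRNA hosts 3 of 23 were called, 1 up and 2 down, and among microRNA hosts 5 of 20, 2 up and 3 down. The median log2 fold change over the tested hosts was 0.03, and −0.02 over all genes. Without either siH2A.Z.1 library calls fell both among the hosts and over all genes, with SNHG16 still called. Without siCtrl 4 replicate 2 the count of called hosts fell to 5, where 22.6% of all tested genes were called. A fit in which a group has 1 library assumes that this library varies like the others.

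**Figure D1:**
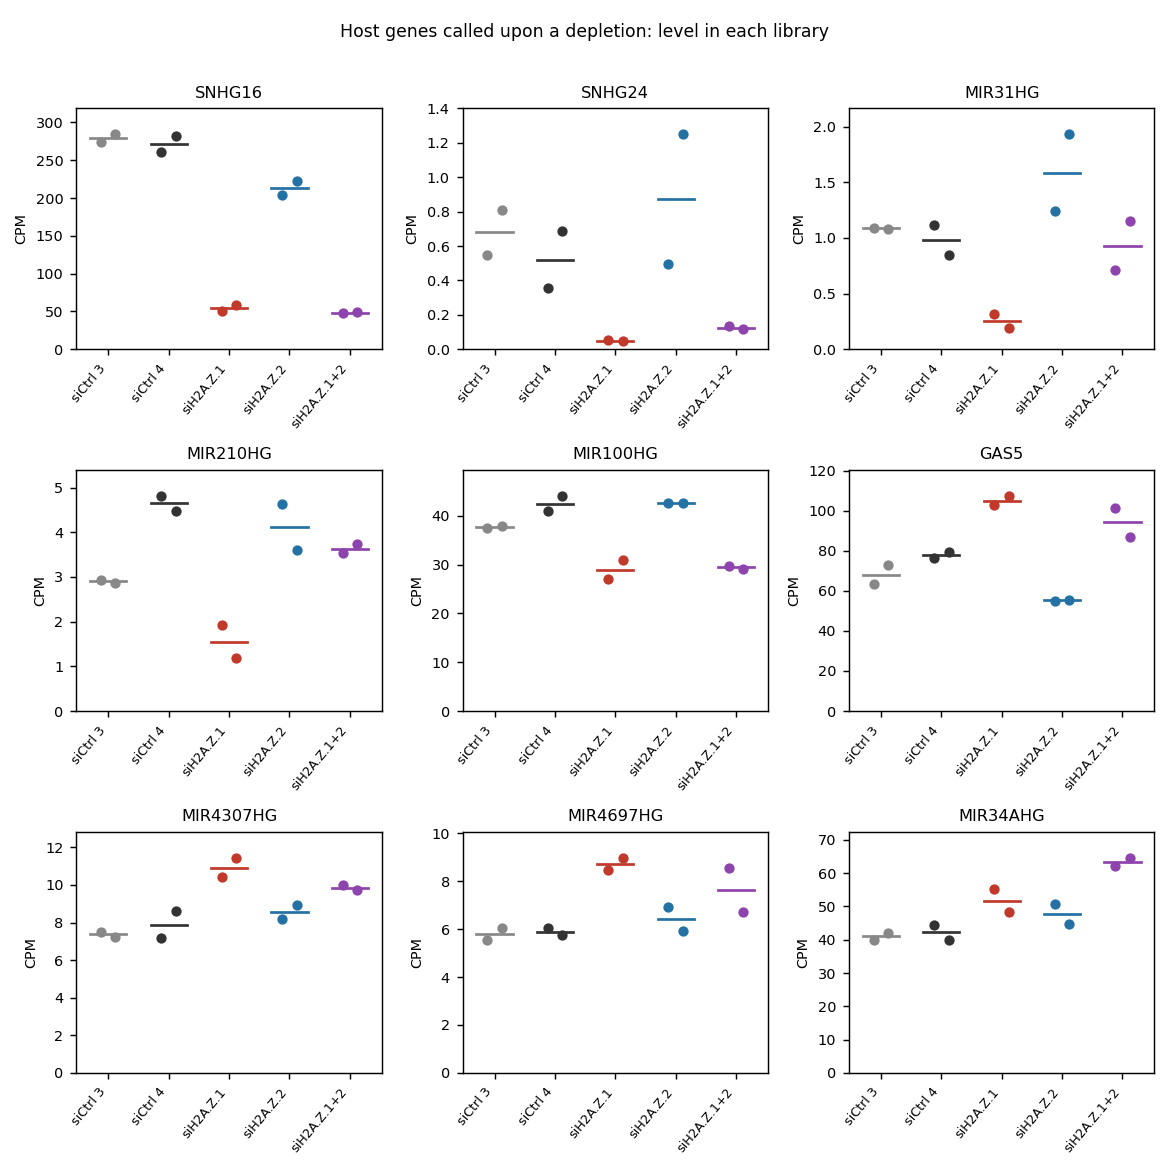
Level of the 9 hosts called upon H2A.Z.1 or combined depletion, in CPM (y axis, starting at 0, one scale per panel) for the 5 siRNA groups (x axis); points are single libraries and bars are means of 2. SNHG16 is at 47.5 to 58.3 CPM in the 4 libraries with the H2A.Z.1 siRNA and at 204 to 284 in the other 6, while MIR31HG and MIR210HG are low in the siH2A.Z.1 libraries only.

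GAS5 rose upon H2A.Z.1 depletion. This host of 9 annotated snoRNAs (chr1:173863901-173869045, minus strand) encodes a growth-arrest transcript that accumulates when translation is blocked. It was at 63.4 and 72.7 CPM in siCtrl 3, 76.2 and 79.4 in siCtrl 4, 103 and 107 in siH2A.Z.1, 54.7 and 55.7 in siH2A.Z.2, and 101 and 87.0 in combined depletion. The siH2A.Z.1 and combined libraries lay above all controls, and both siH2A.Z.2 libraries lay below them. The log2 fold change was 0.52 (SE 0.11, edgeR adjusted p = 0.0152) for H2A.Z.1, −0.40 (SE 0.11, adjusted p = 0.209) for H2A.Z.2 and 0.38 (SE 0.12, adjusted p = 0.0729) for combined depletion. The call upon H2A.Z.1 depletion was lost without either siH2A.Z.1 library (adjusted p up to 0.113).

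SNHG24, whose name the RefSeq table lists as an older symbol of the imprinted non-coding gene MEG8, was the other snoRNA host called. Its counts were low: 14, 15, 8 and 17 in the control libraries, 1 and 1 in siH2A.Z.1, 12 and 33 in siH2A.Z.2, and 3 and 2 in combined depletion. All 4 libraries with the H2A.Z.1 siRNA lay below all others. With 2 counts upon H2A.Z.1 depletion against 54 in the controls, the control level was 11.8 times higher (95% exact binomial interval of the count ratio 3.11 to 99.7), and with 5 counts upon combined depletion it was 4.71 times higher (1.90 to 15.1). These intervals cover counting error only. The edgeR adjusted p was 0.011 for H2A.Z.1 and 0.038 for combined depletion. The first call was lost without either siH2A.Z.1 library (adjusted p up to 0.102). The second call was lost in 6 of 14 alternatives, among them leaving out siCtrl 3 replicate 1 or 2, siCtrl 4 replicate 2 or either combined library (adjusted p up to 0.231).

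The remaining snoRNA hosts were not called upon H2A.Z.1 depletion. ZFAS1, host of SNORD12, SNORD12B and SNORD12C (chr20:49278178-49289260, plus strand), varied little: 48.2 and 50.3 CPM in siCtrl 3, 46.3 and 47.0 in siCtrl 4, 41.8 and 43.7 in siH2A.Z.1, 42.0 and 41.2 in siH2A.Z.2, and 44.0 and 41.9 in combined depletion. All 6 depleted libraries lay below all 4 controls, with log2 fold changes of −0.17 (SE 0.09), −0.20 (SE 0.09) and −0.15 (SE 0.09) that were not called (edgeR adjusted p = 0.22, 0.388 and 0.301). SNHG1, host of a box C/D cluster with SNORD22, SNORD25 to SNORD28, SNORD30 and SNORD31 (chr11:62851978-62855885, minus strand), was at 83.0 and 91.3 CPM in siCtrl 3, 52.5 and 59.8 in siCtrl 4, 80.3 and 93.9 in siH2A.Z.1, 64.0 and 68.6 in siH2A.Z.2, and 92.2 and 82.6 in combined depletion. Its level in the H2A.Z.1 libraries overlapped that of siCtrl 3 and lay above that of siCtrl 4.

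Of the microRNA hosts, MIR31HG fell upon H2A.Z.1 depletion. MIR31HG (chr9:21454268-21559798, minus strand), whose RNA has been linked to the senescence programme and which carries miR-31, was at 1.09 and 1.08 CPM in siCtrl 3, 1.11 and 0.848 in siCtrl 4, 0.32 and 0.19 in siH2A.Z.1, 1.24 and 1.93 in siH2A.Z.2, and 0.715 and 1.15 in combined depletion. Both siH2A.Z.1 libraries lay below all others, and combined depletion overlapped the controls. The H2A.Z.1 log2 fold change was −2.01 (SE 0.38, edgeR adjusted p = 0.0104), on 10 counts against 94 in the controls (ratio 4.10, 95% interval 2.13 to 8.83), and the call was lost without either siH2A.Z.1 library (adjusted p up to 0.108). The difference between combined and H2A.Z.1 depletion, 1.84 (SE 0.45), missed the threshold (adjusted p = 0.0583) and was called by DESeq2 (adjusted p = 0.0481). An exon of the coding gene IFNE lies on the same strand within the MIR31HG span.

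MIR210HG, host of the hypoxia-induced miR-210 (chr11:565657-568457, minus strand), followed the same order. It was at 2.93 and 2.87 CPM in siCtrl 3, 4.81 and 4.48 in siCtrl 4, 1.92 and 1.19 in siH2A.Z.1, 4.64 and 3.60 in siH2A.Z.2, and 3.53 and 3.73 in combined depletion. The siH2A.Z.1 libraries were the lowest, although the control siRNAs themselves differed (log2 fold change 0.68, SE 0.21, edgeR adjusted p = 0.0218, a call lost in DESeq2). The H2A.Z.1 log2 fold change was −1.28 (SE 0.35, edgeR adjusted p = 0.0336), and the call was lost without siCtrl 4 replicate 1 or 2 or either siH2A.Z.1 library (adjusted p up to 0.239). Against combined depletion the difference was 1.23 (SE 0.35, adjusted p = 0.0908; DESeq2 adjusted p = 0.0244).

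MIR100HG, host of miR-100, let-7a and miR-125b (chr11:122028329-122422871, minus strand), was lower in both settings with the H2A.Z.1 siRNA. It was at 37.4 and 37.9 CPM in siCtrl 3, 40.9 and 44.0 in siCtrl 4, 27.0 and 30.9 in siH2A.Z.1, 42.6 and 42.6 in siH2A.Z.2, and 29.8 and 29.1 in combined depletion. The 4 libraries with the H2A.Z.1 siRNA did not overlap the other 6. The log2 fold changes were −0.47 (SE 0.12, edgeR adjusted p = 0.026) and −0.43 (SE 0.11, adjusted p = 0.0368), and 0.09 (SE 0.10, adjusted p = 0.741) upon H2A.Z.2 depletion. The first call was lost in 4 of 15 alternatives, without siCtrl 4 replicate 2, without either siH2A.Z.1 library and without TMM factors. The second call was lost in 9 of 15. It failed without each of the 6 libraries in turn, without TMM factors, without the low-count filter and with a replicate block. With single libraries left out, the log2 fold change ranged from −0.55 to −0.36 for the first and from −0.46 to −0.39 for the second. An exon of the coding gene BLID lies on the same strand within its span.

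MIR4307HG and MIR4697HG rose upon H2A.Z.1 depletion. MIR4307HG, which carries miR-4307 (chr14:26873133-26914743, plus strand), was at 7.50, 7.25, 7.17 and 8.60 CPM in the controls, 10.4 and 11.4 in siH2A.Z.1, 8.20 and 8.95 in siH2A.Z.2, and 9.97 and 9.70 in combined depletion (log2 fold change upon H2A.Z.1 depletion 0.51, SE 0.15, edgeR adjusted p = 0.04). MIR4697HG, listed in the RefSeq table as an older name of the coding gene IGSF9B, was at 5.55, 6.06, 6.06 and 5.74 CPM in the controls, 8.49 and 8.97 in siH2A.Z.1, 6.92 and 5.91 in siH2A.Z.2, and 8.54 and 6.72 in combined depletion (0.57, SE 0.14, adjusted p = 0.0233). Both siH2A.Z.1 libraries lay above all controls in each case. The call of MIR4307HG was lost in 7 of 15 alternatives (adjusted p up to 0.215) and that of MIR4697HG in 4 (adjusted p up to 0.15), in both without siCtrl 3 replicate 1 or either siH2A.Z.1 library, for MIR4307HG also without siCtrl 3 replicate 2 or siCtrl 4 replicate 1, and for MIR4697HG also without siCtrl 4 replicate 2.

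**Figure D2:**
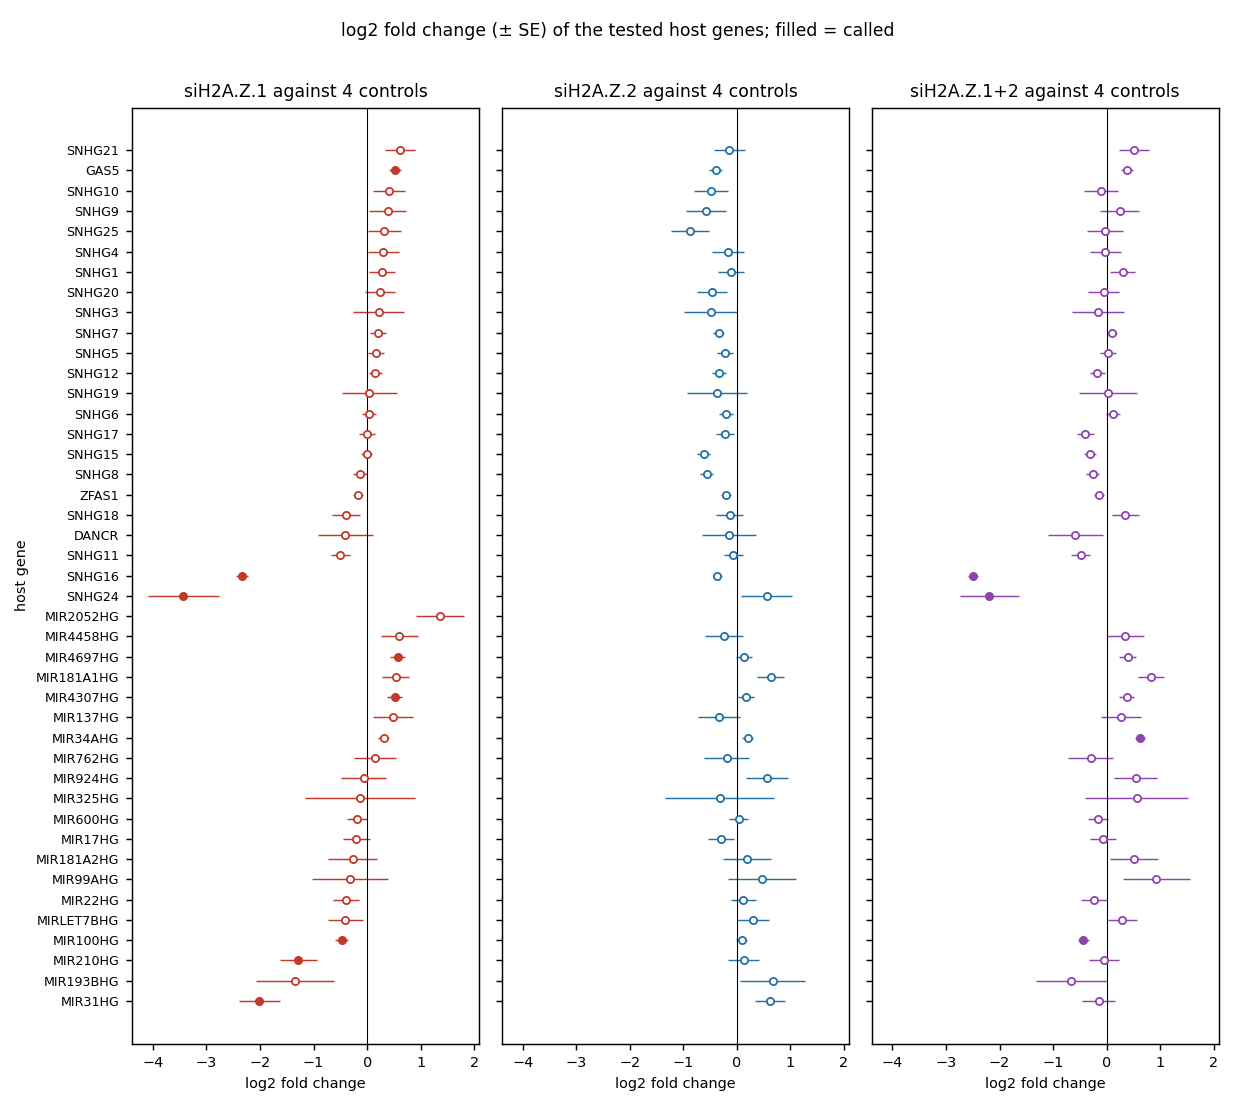
log2 fold change (x axis) of each tested host (y axis, snoRNA hosts above microRNA hosts, each ordered by the H2A.Z.1 value) for the 3 depletions against the 4 control libraries; bars are SE and filled points are calls. SNHG16 is far left of 0 upon H2A.Z.1 (−2.34) and combined depletion (−2.50), and in the siH2A.Z.2 panel 22 of 23 snoRNA hosts lie left of 0 with 0 calls, against 15 of 23 when siCtrl 4 alone is the control.

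Upon H2A.Z.2 depletion, 0 of 42 tested hosts were called in edgeR (background 0.785%). An unadjusted p under 0.05 was seen in 8, a share that was not counted over all genes in any comparison. DESeq2 called 4 lower, SNHG7, SNHG8, SNHG15 and SNHG16, where it called 3% of all genes in either direction. Of the 23 snoRNA hosts, 22 had a negative log2 fold change, with a median of −0.34, against −0.00 over all genes and 0.13 over the 19 microRNA hosts. The sign depended on the control siRNA: against siCtrl 3 alone 21 of the 23 snoRNA hosts were negative (median −0.39), and against siCtrl 4 alone 15 were (median −0.10), with 8 positive. The hosts share libraries and are not independent. SNHG15, SNHG8 and SNHG16 had the smallest p-values, and SNHG15 and SNHG8 are named here after their values were seen. SNHG15, the host of SNORA9, was at 21.7 and 21.7 CPM in siCtrl 3, 23.2 and 24.0 in siCtrl 4, 13.3 and 16.1 in siH2A.Z.2, and 18.3 and 17.9 in combined depletion. SNHG8, host of SNORA24, was at 39.8, 32.5, 34.7 and 31.3 CPM in the controls and at 23.1 and 23.6 in siH2A.Z.2. Both siH2A.Z.2 libraries lay below all controls for these hosts and for SNHG16, with log2 fold changes of −0.62 (SE 0.13), −0.57 (SE 0.13) and −0.37 (SE 0.09) and edgeR adjusted p-values of 0.103, 0.128 and 0.141.

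Upon combined depletion, 4 of 42 hosts were called (9.52%, background 17.1%), with 1 higher (background 7.77%) and 3 lower (background 9.35%). The lower ones were SNHG16, SNHG24 and MIR100HG, described above. The host that rose was MIR34AHG (chr1:9148011-9182338, minus strand), which carries the p53-induced miR-34a. It was at 40.0 and 42.1 CPM in siCtrl 3, 44.5 and 40.0 in siCtrl 4, 55.3 and 48.2 in siH2A.Z.1, 50.7 and 44.8 in siH2A.Z.2, and 62.2 and 64.6 in combined depletion. The combined libraries were the highest and all 6 depleted libraries lay above all controls. Its log2 fold change was 0.31 (SE 0.11, edgeR adjusted p = 0.0673) for H2A.Z.1, 0.20 (SE 0.10, adjusted p = 0.447) for H2A.Z.2 and 0.62 (SE 0.09, adjusted p = 0.00825) for combined depletion, the last of which was lost without either combined library (adjusted p up to 0.103). Without siCtrl 3 replicate 1, siCtrl 3 replicate 2 or siCtrl 4 replicate 2 the count of called hosts was 2. Over all genes 12.8%, 14.6% and 11.3% were then called. Without either combined library calls fell both among the hosts and over all genes. SNHG16 was among the called hosts in each case.

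The depletions were also compared with each other in a fit to all 10 libraries, with the control siRNAs pooled. The difference between the control siRNAs adds to the spread of this fit, so hosts that differ between them are harder to call. SNHG3 was at 155 and 178 CPM in siH2A.Z.1 and at 94.1 and 108 in siH2A.Z.2. It was not called between these groups (log2 difference 0.72, SE 0.48, edgeR adjusted p = 0.289). Between siH2A.Z.1 and siH2A.Z.2, 12 of 43 hosts were called (27.9%, background 32.2%), 7 higher in siH2A.Z.1 (background 13.9%) and 5 lower (background 18.4%). The lower ones were SNHG24 (log2 difference −3.98, SE 0.76, edgeR adjusted p = 0.00394), MIR31HG (−2.63, SE 0.43, adjusted p = 0.00171), SNHG16 (−1.96, SE 0.10, adjusted p = 5.18e-06), MIR210HG and MIR100HG. The higher ones were GAS5 (0.93, SE 0.12, adjusted p = 0.000603), MIR2052HG and the snoRNA hosts SNHG7, SNHG8, SNHG12, SNHG15 and SNHG25, these 5 with log2 differences between 0.45 and 1.19. MIR2052HG was a low-count gene, with 4, 6, 6 and 4 counts in the controls, 12 and 11 in siH2A.Z.1, 2 and 3 in siH2A.Z.2, and 9 and 3 in combined depletion (2.49, SE 0.59, edgeR adjusted p = 0.0112). Leaving out any single siH2A.Z.1 or siH2A.Z.2 library lowered the calls both among the hosts and over all genes.

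Between combined and H2A.Z.2 depletion, 5 of 43 hosts were called (11.6%, background 13.8%), 2 higher (background 4.77%) and 3 lower (background 9.05%). The higher ones were GAS5 (0.77, SE 0.12, edgeR adjusted p = 0.0041) and MIR34AHG, and the lower ones SNHG16 (−2.15, SE 0.10, adjusted p = 1.75e-05), SNHG24 and MIR100HG. Leaving out any single siH2A.Z.2 or combined library lowered these calls both among the hosts and over all genes. Between combined and H2A.Z.1 depletion, 0 of 43 were called in edgeR (background 3.79%) and 7 had an unadjusted p under 0.05. DESeq2 called 2, MIR31HG and MIR210HG (background 5.41%). SNHG16 differed by −0.19 (SE 0.10, adjusted p = 0.345) there. The combined effect was also tested for a departure from the sum of the single effects. There 0 of 43 hosts were called by edgeR (background 0.14%) and 0 by DESeq2 (background 1.42%), and 3 had an unadjusted p under 0.05.

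The control siRNAs themselves differed at many hosts. Between siCtrl 4 and siCtrl 3, 22 of 43 hosts were called (51.2%), where 34.5% of all tested genes were called. Of these, 19 were lower in siCtrl 4 (44.2%, background 17.3%) and 3 were higher (6.98%, background 17.2%). The median log2 difference was −0.43 over the hosts and 0.01 over all genes. The 3 higher hosts were MIR137HG, MIR210HG and SNHG17. The lower ones were SNHG1, SNHG3, SNHG4, SNHG9, SNHG10, SNHG19, SNHG20, SNHG21 and DANCR among snoRNA hosts, and MIR17HG, MIR22HG, MIR99AHG, MIR181A1HG, MIR193BHG, MIR325HG, MIR762HG, MIR924HG, MIR4458HG and MIRLET7BHG among microRNA hosts.

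DANCR, a host of SNORA26 named for its part in holding back differentiation (chr4:52712394-52720697, plus strand), was at 151 and 169 CPM in siCtrl 3 and at 58.5 and 54.6 in siCtrl 4. The other groups lay between, at 71.9 and 92.5 in siH2A.Z.1, 94.2 and 101 in siH2A.Z.2, and 74.5 and 69.1 in combined depletion. The difference between the control siRNAs was −1.50 (SE 0.11, edgeR adjusted p = 1.51e-06), and against the pooled controls no depletion was called (adjusted p = 0.587, 0.922 and 0.465). SNHG19, host of SNORD60 (chr16:2154782-2155358, minus strand), was at 31.1 and 27.3 CPM in siCtrl 3 and at 11.8 and 8.44 in siCtrl 4 (−1.54, SE 0.23, adjusted p = 0.000334), with the depleted libraries between 11.5 and 23.3. SNHG3, host of the abundant SNORA73A and SNORA73B and named here after its values were seen, was at 197 and 220 CPM in siCtrl 3, 74.4 and 77.7 in siCtrl 4, and between 94.1 and 178 in the depleted libraries (−1.45, SE 0.10, adjusted p = 6.61e-07). For DANCR, SNHG19 and SNHG3 every depleted library lay below both siCtrl 3 libraries, and all but 1 value lay above both siCtrl 4 libraries, siH2A.Z.2 replicate 2 of SNHG19 at 11.5 CPM. An exon of the coding gene RCC1 lies on the same strand as SNHG3 within its span.

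**Figure D3:**
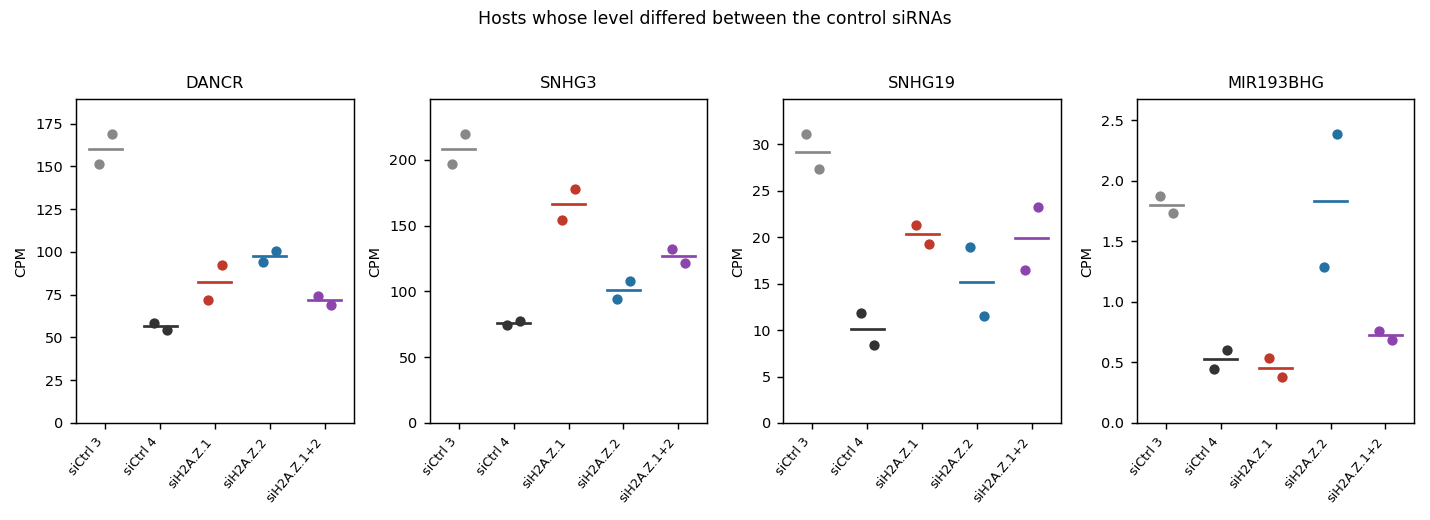
Level in CPM (y axis, starting at 0) of 4 hosts called between the control siRNAs, by siRNA group (x axis); points are single libraries and bars are means of 2. In DANCR the siCtrl 3 libraries are at 151 and 169 and the siCtrl 4 libraries at 58.5 and 54.6, with the 6 depleted libraries between them.

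The largest differences between the control siRNAs were at microRNA hosts with low counts. MIR325HG (chrX:76657798-77014532, minus strand) had 30 and 17 counts in siCtrl 3 and 4 and 1 in siCtrl 4 (log2 difference −3.25, SE 0.54, edgeR adjusted p = 0.000581), and between 8 and 22 in the depleted libraries. MIR99AHG, host of miR-99a, let-7c and miR-125b (chr21:16070488-16631727, plus strand), was at 1.52 and 2.11 CPM in siCtrl 3 and at 0.624 and 0.364 in siCtrl 4 (−1.86, SE 0.36, adjusted p = 0.00155). The depleted libraries were between 0.712 and 2.41. MIR193BHG, host of miR-193b and miR-365a (chr16:14301381-14331062, plus strand), was at 1.88 and 1.73 CPM in siCtrl 3 and at 0.445 and 0.606 in siCtrl 4 (−1.76, SE 0.37, adjusted p = 0.00268). In siH2A.Z.1 it was at 0.534 and 0.38, and in siH2A.Z.2 at 1.28 and 2.39.

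MIR17HG and MIR22HG differed between the control siRNAs by similar amounts. MIR17HG, the primary transcript of the miR-17 to miR-92a cluster that promotes proliferation (chr13:91347687-91354577, plus strand), was at 21.6 and 22.4 CPM in siCtrl 3 and 14 and 14.1 in siCtrl 4 (−0.64, SE 0.12, edgeR adjusted p = 0.0013). It was at 17.5 and 14 in siH2A.Z.1, 14.7 and 14.6 in siH2A.Z.2, and 18.2 and 15.8 in combined depletion, all below siCtrl 3. MIR22HG (chr17:1711504-1716210, minus strand), host of miR-22, was at 31.6 and 30.5 CPM in siCtrl 3, 19.3 and 20.2 in siCtrl 4 (−0.65, SE 0.09, adjusted p = 0.000122), 19.4 and 19.4 in siH2A.Z.1, 26.8 and 28.4 in siH2A.Z.2, and 21.0 and 21.8 in combined depletion. Neither was called in a depletion against the pooled controls.

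**Figure D4:**
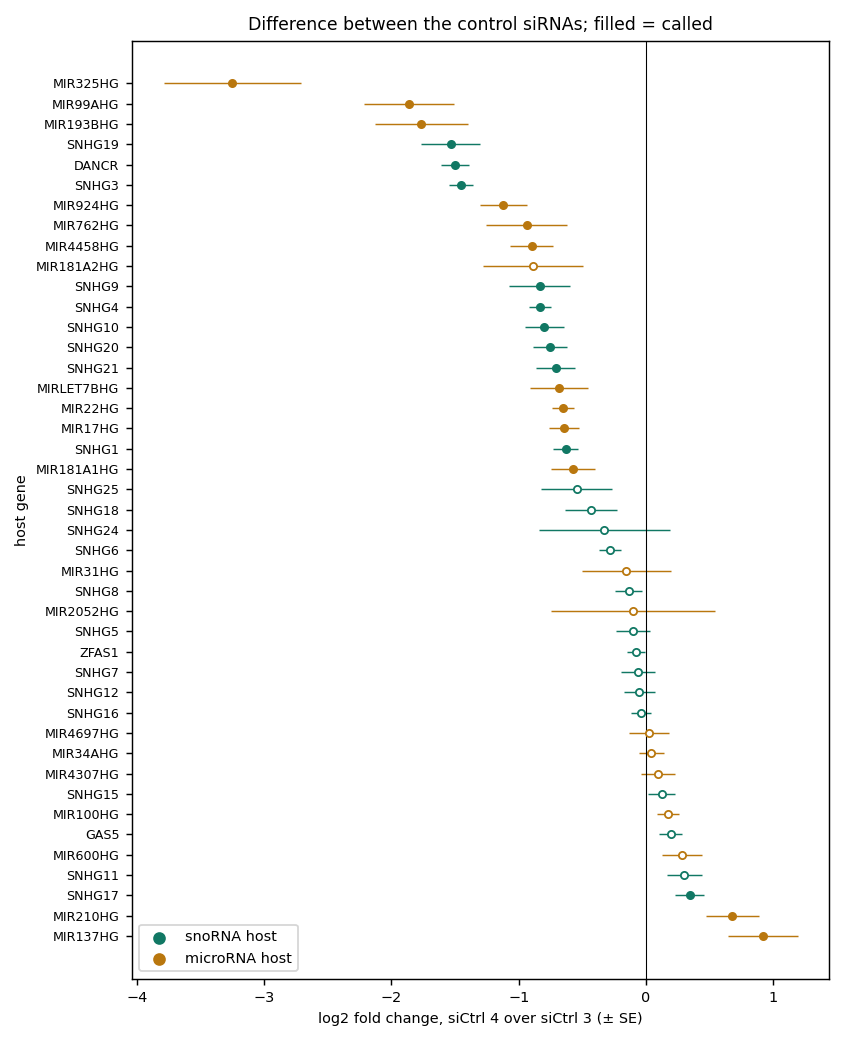
log2 fold change of siCtrl 4 over siCtrl 3 (x axis, bars are SE) for the 43 tested hosts (y axis, ordered by value), from the fit to all 10 libraries; filled points are calls. Of the 22 filled points 19 lie left of 0, down to −3.25 for MIR325HG, and SNHG16 lies at −0.04.

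Because the controls differed, each depletion was also tested against each control siRNA alone, and these tests share the depleted libraries. The share of all genes called against both was not counted, so the hosts called against both have no background to be set against. Upon H2A.Z.1 depletion, 20 hosts were called against siCtrl 3 alone (background 47.8%) and 22 against siCtrl 4 alone (background 53%). In the same direction against both, 7 were called, with GAS5, MIR4307HG and MIR4697HG higher and SNHG16, MIR31HG, MIR100HG and MIR210HG lower, and DANCR, SNHG3, SNHG19 and MIR924HG were called in opposite directions. SNHG24, called upon H2A.Z.1 and combined depletion against the pooled controls, did not pass the filter on low counts with siCtrl 4 alone and was not tested there. Upon H2A.Z.2 depletion the counts were 16 (background 14.2%) and 12 (background 29.6%). SNHG8, SNHG15 and SNHG16 were lower against both, and DANCR and SNHG3 were called in opposite directions. Upon combined depletion the counts were 17 (background 38.7%) and 21 (background 48%). MIR34AHG and MIR181A1HG were higher and SNHG16 and MIR100HG lower against both, and DANCR, SNHG3, SNHG4 and SNHG19 were called in opposite directions. Of the hosts tested against both, SNHG16 was the one called in the same direction against both control siRNAs in all 3 depletions.

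The count table also has rows for snoRNAs, and 48 of them lie within the span of a snoRNA host in RefSeq. A read there can come from a snoRNA or from an unspliced intron, and the share of each was not tested. Of these rows, 0 of 43 tested were called upon H2A.Z.1 depletion, 0 of 44 upon H2A.Z.2 depletion and 2 of 44 upon combined depletion (28%, 0.785% and 17.1% over all genes), SNORD1C and SNORA71C, both lower. Upon H2A.Z.2 depletion 41 of 44 had a negative log2 fold change, with a median of −0.54, and upon H2A.Z.1 depletion 15 of 43, with a median of 0.11. Over all genes these medians were −0.00 and −0.02, and the share of negative values was not counted. The rows share libraries, and several lie in the same host, so they are not independent. Their signs were not taken against each control siRNA alone. Between the control siRNAs 4 of 45 were called (34.5% over all genes), SNORD28 and SNORD1B lower and SNORA71A and SNORA24 higher in siCtrl 4, with a median of 0.03.

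SNHG16 and its snoRNA rows moved unequally. SNORD1A, SNORD1B and SNORD1C summed to 80 and 63 counts in siCtrl 3, 49 and 63 in siCtrl 4, 61 and 68 in siH2A.Z.1, 41 and 47 in siH2A.Z.2, and 39 and 23 in combined depletion. Scaled as the other levels, the siH2A.Z.1 libraries were at 3.26 and 3.23 CPM, within the control range of 2.18 to 3.41, and without TMM factors at 3.40 and 3.37 CPM, above the controls at 2.11 to 3.33. The siH2A.Z.2 and combined libraries lay below all controls on both scales. The log2 ratio of SNHG16 counts to these counts was 6.45, 6.38, 6.90 and 6.79 in the controls, 3.97 and 4.17 in siH2A.Z.1, 6.91 and 6.97 in siH2A.Z.2, and 4.77 and 5.21 in combined depletion. It was lower than the control mean by 2.56 upon H2A.Z.1 depletion and by 1.65 upon combined depletion, with no overlap (two-sided exact permutation p = 0.0667 for each, the smallest that 2 libraries against 4 allow). The H2A.Z.1 log2 fold change was 0.62 for SNORD1A (SE 0.26, edgeR adjusted p = 0.114) and 0.05 for SNORD1C (SE 0.30, adjusted p = 0.911). For SNORD1B it was −0.70 (SE 0.57, adjusted p = 0.393), in the direction of the host. Upon combined depletion SNORD1C was called lower (−1.41, SE 0.35, adjusted p = 0.0382).

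The same ratio was taken for the 15 snoRNA hosts with at least 10 counts for host and snoRNA rows in every library. Besides SNHG16, ZFAS1 reached an exact permutation p of 0.0667 upon both H2A.Z.1 (difference −0.38) and combined depletion (−0.29), GAS5 upon combined depletion (0.56) and SNHG17 upon H2A.Z.2 depletion (0.45), and with 45 such comparisons none can pass an adjustment. Between the control siRNAs, where 2 libraries against 2 cannot go below 0.333, the ratio fell by 1.76 for DANCR over SNORA26 and by 1.67 for SNHG3 over SNORA73A and SNORA73B. SNORA26 was at 291 and 156 counts in siCtrl 3 and 275 and 276 in siCtrl 4, while the host counts of DANCR were 3875 and 3122 against 1313 and 1352. In both hosts the RNA of the spliced gene was lower in siCtrl 4, and the snoRNA rows were not called.

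**Figure D5:**
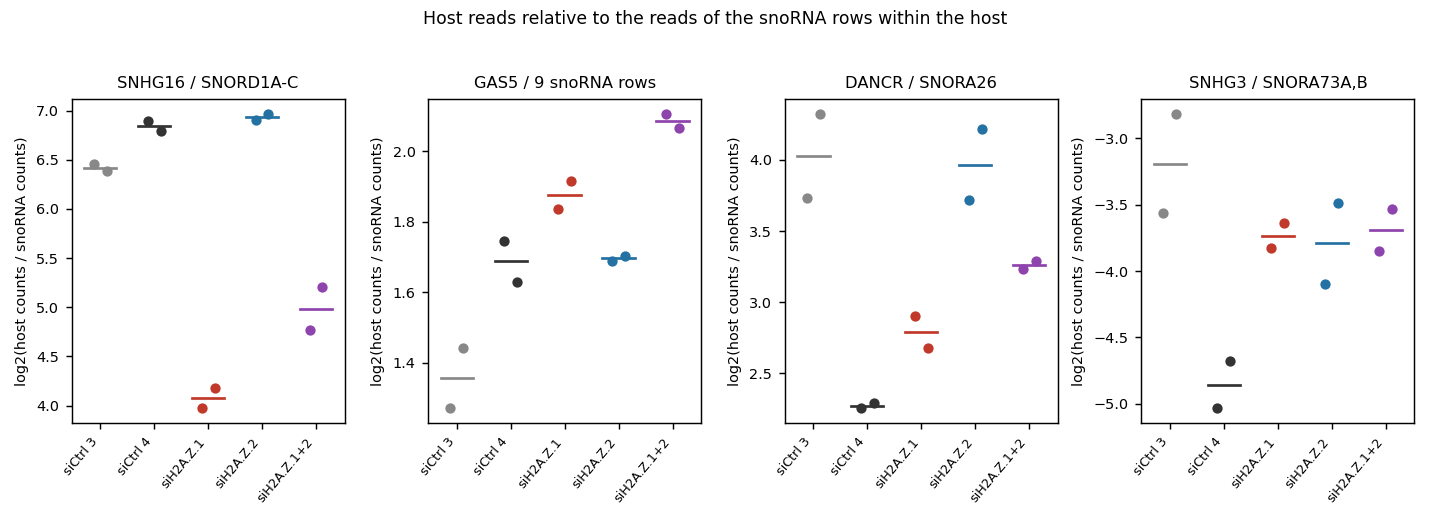
log2 ratio of host counts to the summed counts of the snoRNA rows within the host (y axis, one scale per panel, not starting at 0) by siRNA group (x axis); points are single libraries and bars are means of 2. SNHG16 over SNORD1A to SNORD1C drops from 6.38 to 6.90 in the controls to 3.97 and 4.17 in siH2A.Z.1, and DANCR and SNHG3 are lowest in siCtrl 4.

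Genes that make or handle these small RNAs were counted from lists chosen with earlier results of these data known. Over all genes, H2A.Z.1 depletion gave 12.2% higher and 15.7% lower, while in combined depletion the shares were 7.77% and 9.35%. Counts in lists this small are read only beside those shares. The 4 core proteins of box C/D particles had 1 call, NOP58, higher upon H2A.Z.1 depletion (log2 fold change 0.32, SE 0.09, edgeR adjusted p = 0.033), with a list median of 0.29. Of the 4 box H/ACA core proteins, DKC1, the pseudouridine synthase, was lower upon H2A.Z.1 (−0.41, SE 0.09, adjusted p = 0.0203) and combined depletion (−0.55, SE 0.09, adjusted p = 0.0103), and NHP2 was lower upon combined depletion (−0.41, SE 0.11, adjusted p = 0.0419). Of 12 assembly and transport factors, TGS1, which trimethylates snoRNA caps, was the one call, higher upon H2A.Z.1 (0.54) and combined depletion (0.48), with list medians of −0.04 and −0.15. Of 10 nonsense-mediated decay factors 3 rose upon H2A.Z.1 depletion and 2 upon combined depletion, among them the kinase SMG1 (0.73 and 0.59), and 0 fell (list medians 0.15 and 0.06). Over all genes the medians were −0.02 and −0.01. None of these 4 lists had a call upon H2A.Z.2 depletion.

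Of 13 microRNA processing proteins, 2 rose and 3 fell upon H2A.Z.1 depletion, where 28% of all genes were called, with a median of 0.03. TNRC6C, a silencing scaffold, rose (0.67, SE 0.15, edgeR adjusted p = 0.0166) and DICER1 fell (−0.63, SE 0.16, adjusted p = 0.0298). Both also differed between the control siRNAs, TNRC6C by 0.38 and DICER1 by −0.38. Upon combined depletion 1 rose (TNRC6A) and 1 fell (PRKRA). Of 34 coding genes that host snoRNAs, 6 rose and 3 fell upon H2A.Z.1 depletion (median 0.16), a share near that of all genes, with the ribosomal protein gene RPL5 higher (0.61, SE 0.11, adjusted p = 0.00948) and ATP5B, which encodes the beta subunit of the mitochondrial ATP synthase, lower (−2.25, SE 0.14, adjusted p = 0.000384). Upon combined depletion 0 rose and 3 fell, ATP5B again among them (−1.65, SE 0.13, adjusted p = 0.00159). Of 21 tested coding hosts of microRNAs, 6 rose and 2 fell upon H2A.Z.1, 1 rose upon H2A.Z.2, and 4 rose and 1 fell upon combined depletion (medians 0.09, 0.05 and 0.13). PANK3, a pantothenate kinase and host of miR-103a, was the one that rose in all 3 (0.60, 0.70 and 0.65), and TLN2, host of miR-190a, fell in the H2A.Z.1 and combined depletions (−1.28 and −0.77).

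The hosts not yet described were not called or had few counts. SNHG5, SNHG6, SNHG11 and SNHG18 and the microRNA hosts MIR181A2HG and MIR600HG were tested and called in no comparison. Not being called does not show that they stayed level. SNHG6 differed by −0.28 (SE 0.08, edgeR adjusted p = 0.018) between the control siRNAs and missed only the fold limit. MIR181A2HG differed by −0.89 (SE 0.39, adjusted p = 0.0908) between the control siRNAs. SNHG18 differed by 0.73 (SE 0.26, adjusted p = 0.172) between combined and H2A.Z.1 depletion, and SNHG11 by −0.50 (SE 0.18, adjusted p = 0.0803) upon H2A.Z.1 depletion. SNHG22, MIR497HG, MIR3681HG, MIR5689HG and MIRLET7DHG had between 21 and 69 counts in all and were not tested. A further 14 microRNA hosts had fewer than 20 counts and give no level: MIR133A1HG, MIR202HG, MIR205HG, MIR217HG, MIR381HG, MIR503HG, MIR548XHG, MIR646HG, MIR663AHG, MIR3142HG, MIR3663HG, MIR3945HG, MIR4290HG and MIR4300HG.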

How the data were processed

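The authors aligned paired-end, strand-specific reads to hg38 with STAR and counted them on RefSeq genes with HTSeq 0.6.1, and deposited raw counts per gene for 10 libraries sequenced in 1 lane. They also deposited 3 tables of their own DESeq2 1.22.1 comparisons (normalized counts, fold changes, p-values), which were not used here. Levels are CPM over TMM effective library sizes. Genes passing filterByExpr were scaled by TMM and tested by the quasi-likelihood F test of edgeR 4.0.16 (R 4.3.3), with calls at Benjamini-Hochberg adjusted p under 0.05 and a log2 fold change beyond 0.32, except for non-additivity (adjusted p only). A depletion was fitted with its 2 libraries and the 4 control libraries, and other contrasts with all 10. The control siRNAs were pooled except in the contrast between them and in the fits to each control siRNA alone. The fit was tested on simulated data. DESeq2 1.42.0, other scalings, filters, controls, a replicate block and leaving out each library were alternatives. Python 3.11 scripts read positions, promoters and microRNAs from RefSeq (GRCh38.p14, 59 of 62 symbols matched), strands and transcripts from GENCODE. Replicates differed beyond counting noise (chi-square per degree of freedom 4.68 to 15.1). Total counts of 16716990 to 26946836 set the precision, and intervals cover counting error only.

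The members and gene lists were chosen with earlier results of these data known. Named with full values were hosts called in a depletion, those among them also called between control siRNAs and the 4 others most different there, GAS5, ZFAS1, DANCR, SNHG1, MIR17HG, MIR22HG and MIR31HG, and up to 4 per direct contrast. Overlapping genes on the same strand cannot be separated, since ambiguous reads are not counted in HTSeq's default mode.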

Additional observations from a re-analysis of the deposited data

Results flagged for a closer look

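MIR31HG in siCtrl 4 replicate 2 was at 0.848 CPM, apart from the other 3 control libraries at 1.08, 1.09 and 1.11 CPM. The gap to the nearest library was 0.883 of the range of the 4 controls, above Dixon's 95% critical value for 4 samples. The library had 21 counts of the gene, and 48 hosts were examined in this way, of which 1 was set apart. Chance sets apart about 1 in 20 groups.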

How the results depend on the processing

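Counts of called hosts depended mostly on the control siRNA and on single libraries. Leaving out any single library also lowered the share called over all genes, in every comparison. Upon H2A.Z.1 depletion 8 hosts were called, and 20 (5 up, 15 down) with siCtrl 3 alone as control or 22 (17 up, 5 down) with siCtrl 4 alone. Leaving out single libraries gave 1 to 7. Upon H2A.Z.2 depletion 0 became 16 (all down) with siCtrl 3 alone, 12 (8 up, 4 down) with siCtrl 4 alone and 4 with DESeq2. Upon combined depletion 4 became 17 (4 up, 13 down), 21 (16 up, 5 down) and, with a replicate block, 2, and 1 to 3 without single libraries. Without TMM factors (library size only), 19 were called between siH2A.Z.1 and siH2A.Z.2 (14 up, 5 down), where the median over all genes moved from −0.01 to 0.10, and 5 to 8 without single libraries. Between combined and H2A.Z.2 depletion leaving out single libraries gave 2 to 3, and DESeq2 called 2 between combined and H2A.Z.1 depletion. The log2 fold change of DANCR turned to 0.54, 0.79 and 0.37 upon H2A.Z.1, H2A.Z.2 and combined depletion with siCtrl 4 alone. By the rule applied, the replicate numbers were not used to pair the libraries in the main fits. Correlations of deviations between replicates were all positive among the 4 groups other than combined depletion, at 0.0797 to 0.279. With the combined libraries they were all negative, at −0.293 to −0.131. The replicate block ended the calls of MIR210HG and MIR4307HG upon H2A.Z.1 and of SNHG24 and MIR100HG upon combined depletion. With the numbers of the combined libraries exchanged, chosen after seeing the data, 0 and 5 hosts were called against siH2A.Z.1 and siH2A.Z.2. Of 103 recomputed counts, 25 moved by more than 1.5 times. The causes were not tested. Depth limits hosts under about 1 CPM to differences of several fold.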
